A study of Arabidopsis thaliana with 6 samples.

Results

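The 61 genes described here are the Arabidopsis thaliana genes that carry the name BGLU with a number or the word beta-glucosidase in their description, out of 33037 genes counted in closed flower buds. BGLU18 and BGLU23, which also carry such a name, were set aside by the rule that chose the members. The rule used names and descriptions alone and no measured value, though the members were chosen with earlier results of these data known. It joined enzymes of different kinds: 40 members are named BGLU and all 40 are annotated by the files with the glycoside hydrolase family 1 domain, 20 are described as glucan endo-1,3-beta-glucosidases, of which 19 are annotated with the family 17 domain, and 1, AT5G20940, is described as a beta-glucosidase-like protein. The label of a BGLU family therefore fits 40 of the 61 members.

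A beta-glucosidase of family 1 takes a glucose from the end of a small molecule, and plants use such enzymes to release stored, inactive glucosides of defence compounds, hormones, lignin precursors and flavonoids. Some family 1 members instead move the glucose on to another molecule. A glucan endo-1,3-beta-glucosidase of family 17 cuts inside chains of callose, the glucan laid down at plasmodesmata, in infected walls and around developing microspores, where its breakdown sets the microspores free.

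RNA was sequenced from closed buds of plants labelled naa50-1 and of wild-type plants, in 3 biological replicates each, with no treatment named. NAA50 is an acetyltransferase that works on the starts of protein chains. The kind and position of the naa50-1 lesion are not given in the labels. The 6 libraries held 19727584 to 20813563 counts. NAA50 itself had 49330, 54077 and 61988 counts in the libraries labelled naa50-1, against 552, 571 and 461 in the wild-type libraries. Its reads were thus about 102-fold higher in the libraries labelled naa50-1 (by mean CPM, counts scaled for library size). Whether these reads come from an intact transcript was not tested. Every direction below is therefore that of the libraries labelled naa50-1. The floral organ identity genes AP1, AP3, PI, AG and SEP3, a check of the labelled tissue, summed to 1026 to 1342 CPM in the libraries labelled naa50-1 and 844 to 1188 CPM in the wild-type libraries, and 0 of 5 passed the test. Mature pollen markers, all 7 of which fell, summed to 36.0 to 39.1 CPM in the libraries labelled naa50-1 and 929 to 1316 CPM in the wild-type libraries. In such bulk samples fewer cells of a type and less RNA per cell cannot be told apart.

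Family 1 enzymes work with a pair of glutamates, one of which attacks the sugar. The coding stretches around the codon of that attacking residue are shown for the 5 BGLU genes that rose and for BGLU20, the member with the highest level, because they show which of these transcripts carry the catalytic residue. Each is 15 bases of the longest RefSeq coding sequence in TAIR10.1, written 5′ to 3′, and the capitals mark the codon.
BGLU31: ataactGAAaacggt
BGLU28: atcaaaGAGaacgga
BGLU11: atcctaGAGaatgga
BGLU25: gtcactGGAaacggg
BGLU44: ctctctGAAaacggt
BGLU20: atcaccGAGaatgga
GAA and GAG are codons of glutamate and GGA is a codon of glycine. Of the 40 BGLU genes, 24 had GAA and 11 had GAG at this place, BGLU25 alone had GGA, and in 4 (BGLU2, BGLU4, BGLU6 and BGLU36) the pattern searched was not found. The pattern allowed glutamate, glutamine or glycine at the marked codon. The files describe BGLU25 as probably inactive.

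Levels differed widely among the members. On the scale of FPKM, fragments per kilobase of transcript scaled for depth, 5 members had most of the summed level: BGLU20, BGLU44, ATBG_PPAP, E13L3 and A6. BGLU20, first found as a transcript of the anther, stood at 180, 248 and 253 FPKM in the libraries labelled naa50-1, against 284, 278 and 411 FPKM in the wild-type libraries. All 3 libraries labelled naa50-1 lay below all wild-type libraries. The log2 fold change of -0.52 (SE 0.19) did not pass the test across all genes (adjusted p = 0.158, edgeR quasi-likelihood test).

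BGLU44, an enzyme known to act on mannosides, stood at 136, 192 and 175 FPKM in the libraries labelled naa50-1, against 127, 89.5 and 92.0 FPKM in the wild-type libraries. Here the libraries labelled naa50-1 lay above, by little between their replicate 1 and wild type replicate 1. ATBG_PPAP, a callose-degrading glucanase of plasmodesmata, averaged 117 ± 7.31 FPKM in the libraries labelled naa50-1 and 119 ± 9.83 FPKM in the wild-type libraries (SD, n = 3 each). E13L3, a protein known to bind callose at plasmodesmata, averaged 106 ± 12.1 FPKM in the libraries labelled naa50-1 and 98.6 ± 3.61 FPKM in the wild-type libraries (SD, n = 3 each). Both overlapped between the genotypes and neither passed the test.

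A6, a glucanase of the tapetum linked to the release of microspores, had 157, 220 and 135 CPM in the libraries labelled naa50-1, against 239, 127 and 92.7 CPM in the wild-type libraries. The highest and the lowest values were both wild type, and the groups overlapped. The log2 fold change was 0.16 (edgeR adjusted p = 0.867, SE 0.31), and it turned to -0.10 without wild type replicate 3 and to -0.06 without naa50-1 replicate 2. The 13 tapetum markers summed to 845, 937 and 821 CPM in the libraries labelled naa50-1, against 1090, 522 and 732 CPM in the wild-type libraries, and 0 of 13 passed the test. Their part in the values of A6 was not tested.

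The 5 leading members together made up 55.1% to 59.6% of the summed FPKM of all members in the libraries labelled naa50-1 and 60.9% to 63.2% in the wild-type libraries. BGLU20 alone made up 15.8% to 20.2% in the libraries labelled naa50-1 and 22.8% to 33.4% in the wild-type libraries. The shares of BGLU20 did not overlap between the genotypes, while the summed level of all members did, at 1138 to 1340 FPKM in the libraries labelled naa50-1 and 1063 to 1248 FPKM in the wild-type libraries.

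**Figure D1:**
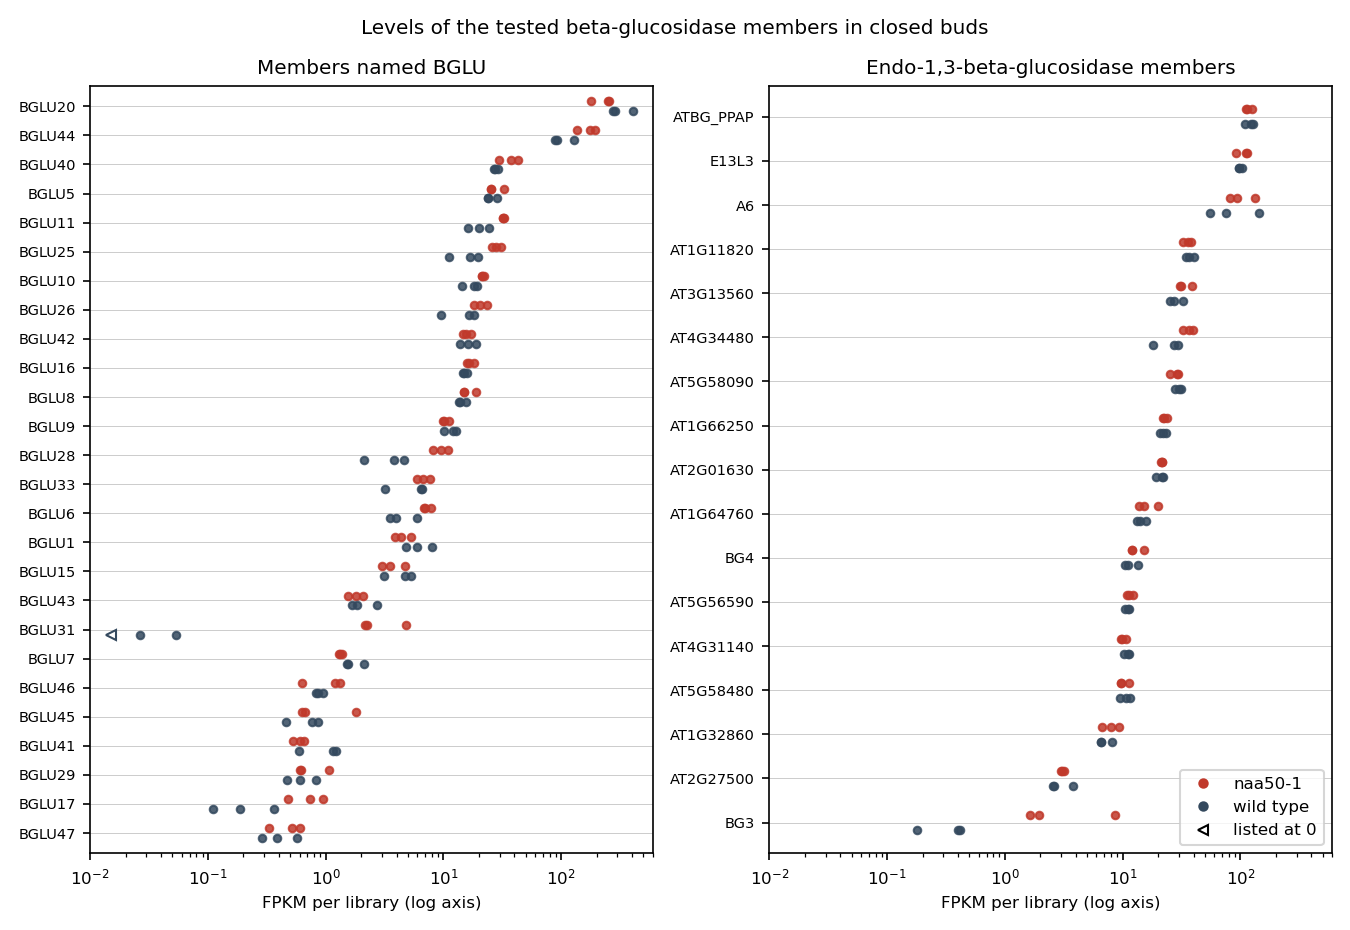
FPKM of each tested member in every library on a log axis, with 1 row per member, red points for the 3 libraries labelled naa50-1 and dark points for the 3 wild-type libraries. The levels run from the 180 to 411 FPKM of BGLU20 to below 1 FPKM, and BGLU31 and BG3 show the widest gaps between the genotypes, with 1 wild-type library of BGLU31 listed at 0 (open triangle).

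**Figure D2:**
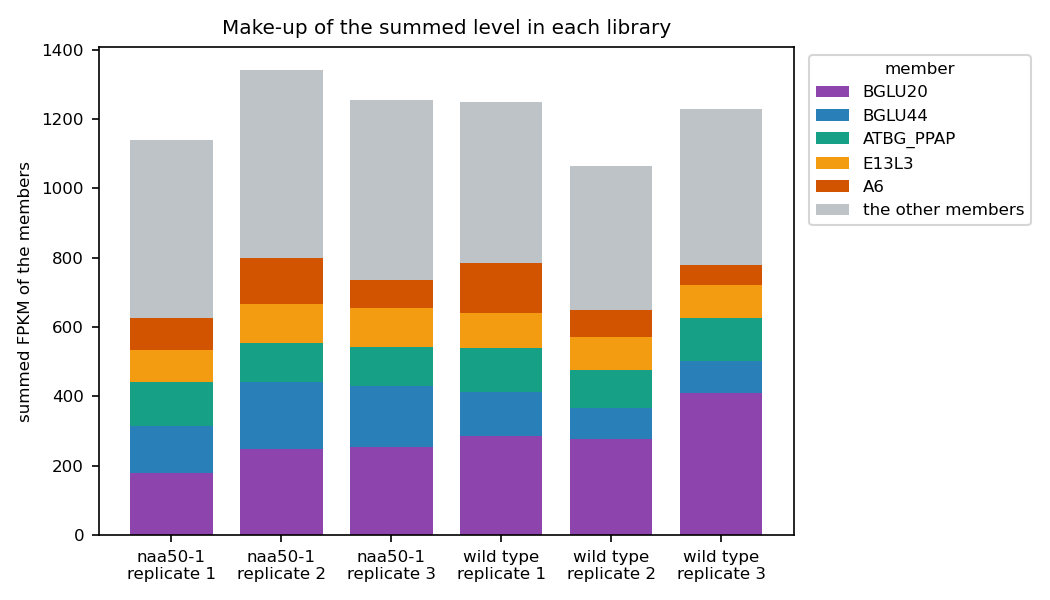
Summed FPKM of all members in each library, stacked by the 5 leading members and the rest. The BGLU20 segment is 15.8% to 20.2% of the bar in the libraries labelled naa50-1 and 22.8% to 33.4% in the wild-type libraries.

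The comparison of the genotypes asked which members differ in buds labelled naa50-1. A total of 43 members had enough counts for the test, 26 named BGLU and 17 endo-glucanases. The 17 are a class by description and include E13L3, described as glucan endo-1,3-beta-glucosidase-like and annotated without the family 17 domain. Of these, 6 rose and 0 fell (edgeR quasi-likelihood test, Benjamini-Hochberg adjusted p under 0.05 over 21196 genes). Of all tested genes 3.94% rose and 5.59% fell. The members that rose were BGLU31, BGLU28, BGLU11, BGLU25, BGLU44 and, among the endo-glucanases, BG3, which is 14.0% of the tested members, 5 of 26 BGLU genes and 1 of 17 endo-glucanases. At an unadjusted p under 0.05 in edgeR, 12 members were higher and 2 lower (BGLU20 and BGLU1). Over all 21196 tested genes, 1921 were higher and 2157 lower at that level. DESeq2 and limma-voom called 0 members lower. The median log2 fold change was 0.16 over the tested members, 0.25 over the BGLU genes and 0.06 over the endo-glucanases, against -0.01 over all tested genes. Of the tested members 30 had a positive and 13 a negative fold change, against 10253 positive and 10943 negative over all tested genes. Libraries labelled naa50-1 lay above all wild-type libraries in 13 tested members and below them all in 2, BGLU20 and BGLU7. The share of all tested genes that separated in this way was not counted, so these counts have no background.

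The count of 6 was also 6 without naa50-1 replicate 2 and without wild type replicate 2, the libraries with the highest summed level of the salicylate-linked defence list and of the mature pollen markers, with 5 of the 6 genes shared in each case. Without naa50-1 replicate 3 it was 4, and the members' median fell to 0.06.

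**Figure D3:**
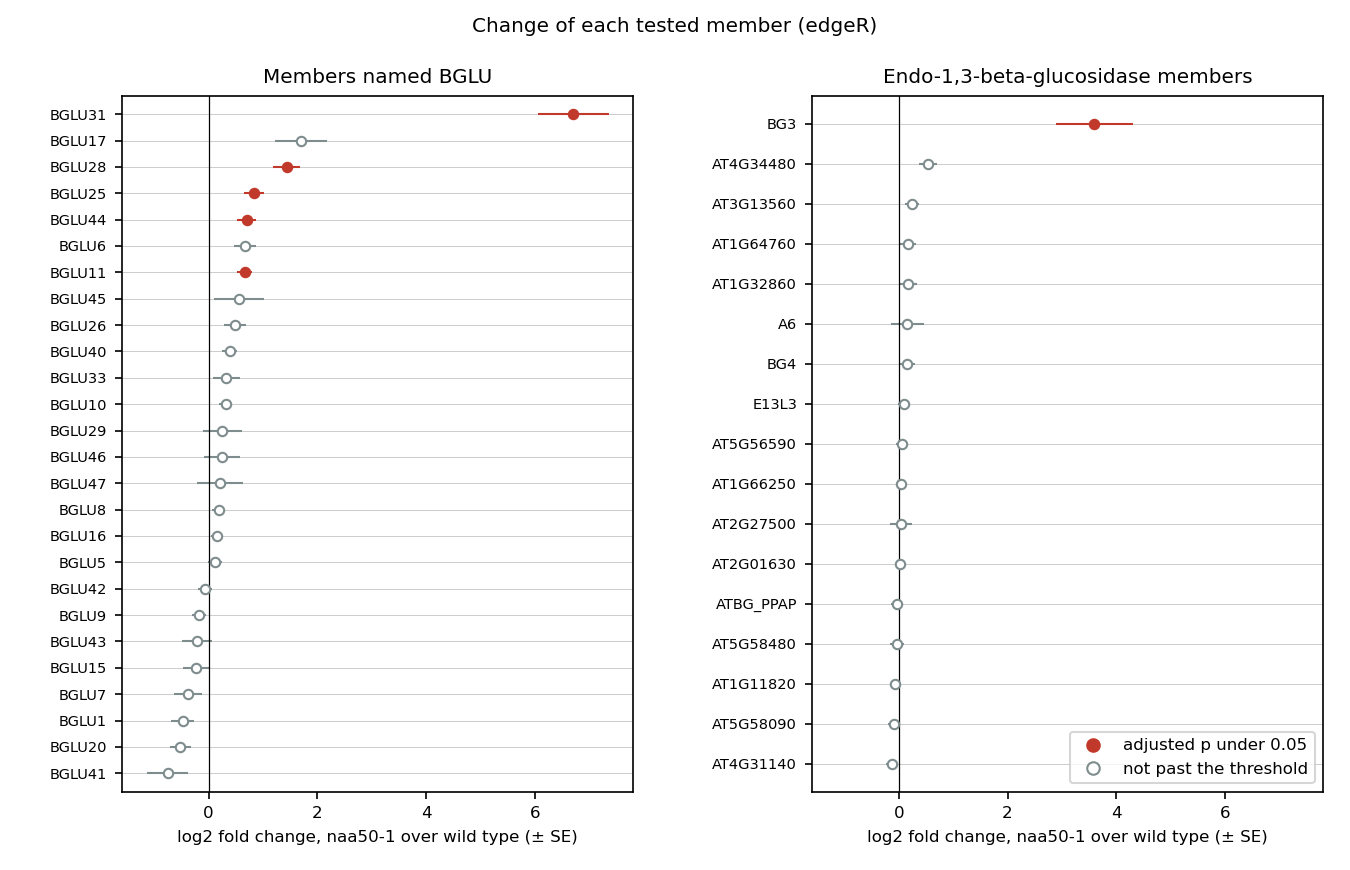
log2 fold change of each tested member, libraries labelled naa50-1 over wild type, with its standard error, in 2 panels by class. Filled red points passed an adjusted p of 0.05: BGLU31 at 6.71, BG3 at 3.59, BGLU28 at 1.43 and BGLU25, BGLU44 and BGLU11 between 0.67 and 0.83, while most of the endo-glucanases lie near 0.

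BGLU31 (AT5G24540, TAIR10 chromosome 5, 8384681 to 8388028, minus strand), a family 1 enzyme, was close to absent in the wild type. It had 85, 195 and 84 counts in the libraries labelled naa50-1, against 1, 0 and 2 in the wild-type libraries. The groups were far apart, with naa50-1 replicate 2 about as high as the other 2 libraries of that label together. The mean was 5.85 ± 2.90 CPM in the libraries labelled naa50-1 and 0.051 ± 0.051 CPM in the wild-type libraries (SD, n = 3 each). The ratio of the summed counts, per library total, was 121 (exact 95% interval 40.9 to 587, counting error only). The fitted log2 fold change was 6.71 (edgeR adjusted p = 0.000103, SE 0.65), and 7.57 without wild type replicate 3. Over 15 alternative settings at the same threshold it ran from 1.93 to 7.57 and passed in all 15, so its size depends on the setting. The 1.93 is the value on log2(FPKM + 1), where the added 1 is far above the wild-type mean of 0.027 FPKM.

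BG3 (AT3G57240, chromosome 3, 21181642 to 21183144, minus strand) is a family 17 glucanase of the kind known from defence against fungi. It had 46, 255 and 56 counts in the libraries labelled naa50-1, against 5, 12 and 11 in the wild-type libraries. Every library labelled naa50-1 exceeded every wild-type library, and naa50-1 replicate 2 stood well above the others. BG3 averaged 5.69 ± 5.50 CPM in the libraries labelled naa50-1 and 0.466 ± 0.187 CPM in the wild-type libraries (SD, n = 3 each), a log2 fold change of 3.59 (edgeR adjusted p = 0.00917, SE 0.71). Without naa50-1 replicate 2 the log2 fold change was 2.42. The call was missed with limma-voom (adjusted p = 0.0789) and with limma on log2(FPKM + 1) (adjusted p = 0.0522).

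BGLU28 (AT2G44460, chromosome 2, 18346306 to 18350026, plus strand) is known for the breakdown of glucosinolates, the sulfur-rich defence glucosides of this plant family, when sulfur is short. It had 418, 508 and 366 counts in the libraries labelled naa50-1, against 202, 97 and 164 in the wild-type libraries. The lowest library labelled naa50-1 lay well above the highest of the wild type. The mean was 20.9 ± 3.07 CPM in the libraries labelled naa50-1 and 7.74 ± 2.75 CPM in the wild-type libraries (SD, n = 3 each), a log2 fold change of 1.43 (edgeR adjusted p = 0.0043, SE 0.25). It passed in all 15 alternative settings at the same threshold, with log2 values of 1.18 to 1.67.

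BGLU11 (AT1G02850, chromosome 1, 630374 to 633420, plus strand) had 1428, 1495 and 1437 counts in the libraries labelled naa50-1, against 878, 745 and 1046 in the wild-type libraries. The libraries labelled naa50-1 were nearly equal and the wild-type libraries were spread below them. The mean was 70.7 ± 0.80 CPM in the libraries labelled naa50-1 and 44.6 ± 8.62 CPM in the wild-type libraries (SD, n = 3 each), a log2 fold change of 0.67 (edgeR adjusted p = 0.0105, SE 0.13). BGLU11, BGLU28 and BGLU31 were the 3 members that passed in all 15 settings.

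BGLU25 (AT3G03640, chromosome 3, 880988 to 884157, plus strand), the gene with GGA in place of a glutamate codon, had 909, 1056 and 1121 counts in the libraries labelled naa50-1, against 589, 408 and 682 in the wild-type libraries. The groups did not overlap. The mean was 49.97 ± 4.52 CPM in the libraries labelled naa50-1 and 28.1 ± 7.60 CPM in the wild-type libraries (SD, n = 3 each), a log2 fold change of 0.83 (edgeR adjusted p = 0.0158, SE 0.18). The call was missed without naa50-1 replicate 3 (adjusted p = 0.0603). BGLU25 shares 25 bases with EDA5 on the other strand, and reads over them cannot be assigned with certainty because the strand setting is not given.

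BGLU44 (AT3G18080, chromosome 3, 6191461 to 6194452, plus strand) had 5420, 8120 and 7191 counts in the libraries labelled naa50-1, against 5064, 3705 and 3604 in the wild-type libraries. The mean was 335 ± 57.3 CPM in the libraries labelled naa50-1 and 206 ± 41.0 CPM in the wild-type libraries (SD, n = 3 each), a log2 fold change of 0.70 (edgeR adjusted p = 0.0317, SE 0.17). This was the weakest of the 6 calls. It was missed without wild type replicate 2 (adjusted p = 0.0854), wild type replicate 3 (0.133), naa50-1 replicate 2 (0.110) or naa50-1 replicate 3 (0.0996).

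**Figure D4:**
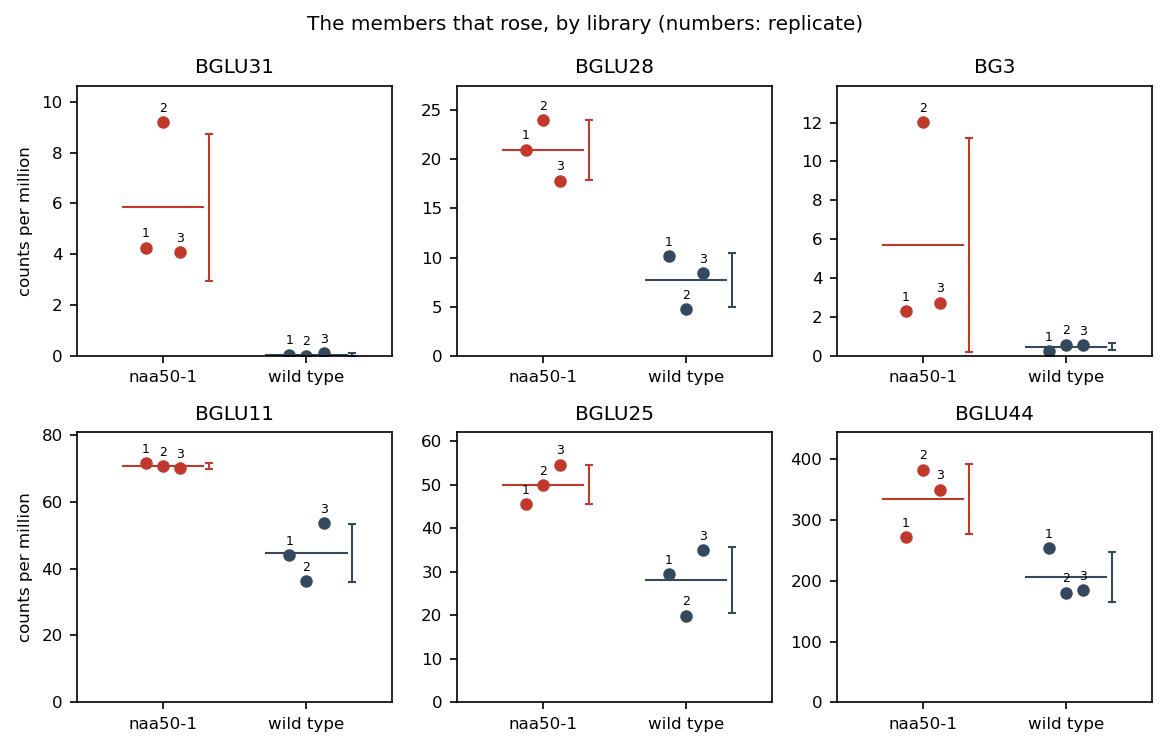
CPM of the 6 members that rose, with 1 point per library numbered by replicate, the mean as a line and the SD as a bar, libraries labelled naa50-1 in red at the left of each panel and wild type at the right. The groups do not overlap in any panel, and naa50-1 replicate 2 is far above the other libraries in BGLU31 and BG3.

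Of the 37 tested members that did not pass, 34 had a log2 fold change between -0.60 and 0.60. The other 3 were BGLU17, BGLU6 and BGLU41. BGLU17 had 34, 47 and 23 counts in the libraries labelled naa50-1, against 17, 9 and 5 in the wild-type libraries, a log2 fold change of 1.69 (edgeR adjusted p = 0.0573, SE 0.48). Its groups did not overlap, and it passed without wild type replicate 1 (log2 fold change 2.25, adjusted p = 0.0320), with scaling by library totals (adjusted p = 0.0494) and in DESeq2 (adjusted p = 0.0358). BGLU6, known from other accessions to add a glucose to a flavonol glycoside, averaged 13.3 ± 1.03 CPM in the libraries labelled naa50-1 and 8.32 ± 2.53 CPM in the wild-type libraries (SD, n = 3 each), with a log2 fold change of 0.67 (edgeR adjusted p = 0.0888, SE 0.21). Its groups did not overlap either, and it passed without wild type replicate 2 (log2 fold change 0.94, adjusted p = 0.00718) and in DESeq2 (adjusted p = 0.0397). BGLU41 had a log2 fold change of -0.75 (edgeR adjusted p = 0.329, SE 0.38), and a gene on the other strand, AT5G54569, covers it, so that its reads are uncertain.

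Several members with known substrates or partners were among those that did not pass. BGLU26, the peroxisomal enzyme PEN2 that activates indole glucosinolates in defence against invading fungi, stood at 18.2, 23.5 and 20.3 FPKM in the libraries labelled naa50-1, against 18.2, 9.48 and 16.5 FPKM in the wild-type libraries. In CPM its groups were separate by a narrow margin, and the log2 fold change was 0.49 (edgeR adjusted p = 0.238, SE 0.21). BGLU42, a root enzyme known from the release of coumarins, had a log2 fold change of -0.06, or 0.05 without wild type replicate 1. BGLU45 and BGLU46 act on the glucosides of lignin precursors. BGLU45 had 88, 32 and 33 counts in the libraries labelled naa50-1, against 37, 43 and 22 in the wild-type libraries. Its log2 fold change of 0.56 rested on naa50-1 replicate 1 and was -0.11 without that library. BGLU46 had 0.25, and BGLU33, linked to the release of abscisic acid from its glucose ester, had 0.32. BGLU10, known to add glucose to anthocyanins, had 0.32, and BGLU15, known to cut flavonol glycosides, had -0.22.

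Among the BGLU genes with a negative fold change, the 5 with the smallest p were BGLU20, BGLU1, BGLU41, BGLU7 and BGLU9. BGLU1 averaged 9.59 ± 1.54 CPM in the libraries labelled naa50-1 and 13.3 ± 3.47 CPM in the wild-type libraries (SD, n = 3 each; log2 fold change -0.48, adjusted p = 0.254, edgeR). BGLU7 and BGLU9 had values of -0.38 and -0.17. None of the 5 passed in edgeR, and of them BGLU20 and BGLU1 were under an unadjusted p of 0.05.

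No tested endo-glucanase other than BG3 passed the test in edgeR. AT4G34480 came next after BG3 by p, at 81.9, 88.3 and 72.4 CPM in the libraries labelled naa50-1, against 60.9, 41.1 and 65.9 CPM in the wild-type libraries. Its groups did not overlap, and its log2 fold change of 0.53 (edgeR adjusted p = 0.0880, SE 0.17) passed with scaling by library totals (adjusted p = 0.0356) and in DESeq2 (adjusted p = 0.0403). The other 15 ran from -0.12 (AT4G31140) to 0.24 (AT3G13560) with overlapping groups. Between these lay AT1G64760 at 0.17, BG4 at 0.16, AT5G58090 at -0.09, AT1G11820 at -0.06, AT5G58480 at -0.04 and ATBG_PPAP at -0.03. The last 3 of these, all close to 0, turned positive when single libraries were left out, at 0.022 or less. AT4G31140, AT1G11820 and AT2G01630, like BGLU9, BGLU45 and BGLU47 among the BGLU genes, share over 100 bases with a gene on the other strand, so their values are uncertain to that extent.

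A total of 18 members had too few counts for the test, with at most 32 counts in any library: 14 BGLU genes, 3 endo-glucanases and AT5G20940. BGLU4 had no count in any of the 6 libraries. BGLU21, an enzyme known from roots, where it acts on the coumarin glucoside scopolin, had 0, 0 and 0 counts in the libraries labelled naa50-1, against 4, 12 and 2 in the wild-type libraries, which is at least 6.04-fold lower when the group is set to a floor of 3 counts in all. BGLU27 had 1, 6 and 2 counts in the libraries labelled naa50-1 and none in the wild type, which is at least 2.98-fold higher against the same floor. BGLU22 had 0, 3 and 3 counts in the libraries labelled naa50-1 and none in the wild type.

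BGLU3, BGLU14, BGLU19, BGLU24, BGLU32 and AT5G20940 had 1 or 2 counts over the libraries labelled naa50-1 and none in the wild type, below what a count of 0 allows. BGLU36, a myrosinase-like gene, had 1, 0 and 0 counts in the libraries labelled naa50-1, against 0, 15 and 5 in the wild-type libraries. AT4G16260, an endo-glucanase, had 3, 32 and 14 counts in the libraries labelled naa50-1, against 4, 0 and 9 in the wild-type libraries, with overlapping groups. BGLU12 and BGLU13 are 96.1% identical over 1545 bases, so that their few reads may be divided between them.

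Many members lie side by side in the genome, in 11 groups with at most 2 other genes between neighbours, and within such groups the values differed. On chromosome 2, BGLU15, BGLU28, BGLU29, BGLU17 and BGLU26 follow each other on the plus strand and had log2 fold changes of -0.22, 1.43, 0.25, 1.69 and 0.49, of which BGLU28 alone passed. Without naa50-1 replicate 3 the value of BGLU29 was -0.06. BGLU44 passed, while its neighbour BGLU43 had -0.21 (adjusted p = 0.767, edgeR), or 0.04 without wild type replicate 2. BGLU31 lies beside BGLU32, which is 91.6% identical to it over 1608 bases and had 0, 2 and 0 counts in the libraries labelled naa50-1 and none in the wild type. No difference between neighbours was tested.

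BG3 lies near BG1, with 1 gene of the same family between them that is no member by its description, BGL2, known as the defence marker PR2. BG1 had 6, 7 and 9 counts in the libraries labelled naa50-1, against 0, 0 and 5 in the wild-type libraries, a ratio of 4.37 (exact 95% interval 1.62 to 14.8, counting error only). BGL2 had 3071, 5934 and 3418 counts in the libraries labelled naa50-1, against 60, 21 and 50 in the wild-type libraries, and it rose by a log2 fold change of 6.51 (edgeR adjusted p = 3.52e-06, SE 0.37). All 3 genes were thus higher in each library labelled naa50-1 than in any wild-type library, with BG1 below the counts needed for the test. For BG1 the margin was narrow, at 0.301 CPM in naa50-1 replicate 1 against 0.256 CPM in wild type replicate 3. How many of all genes separate in this way was not counted.

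**Figure D5:**
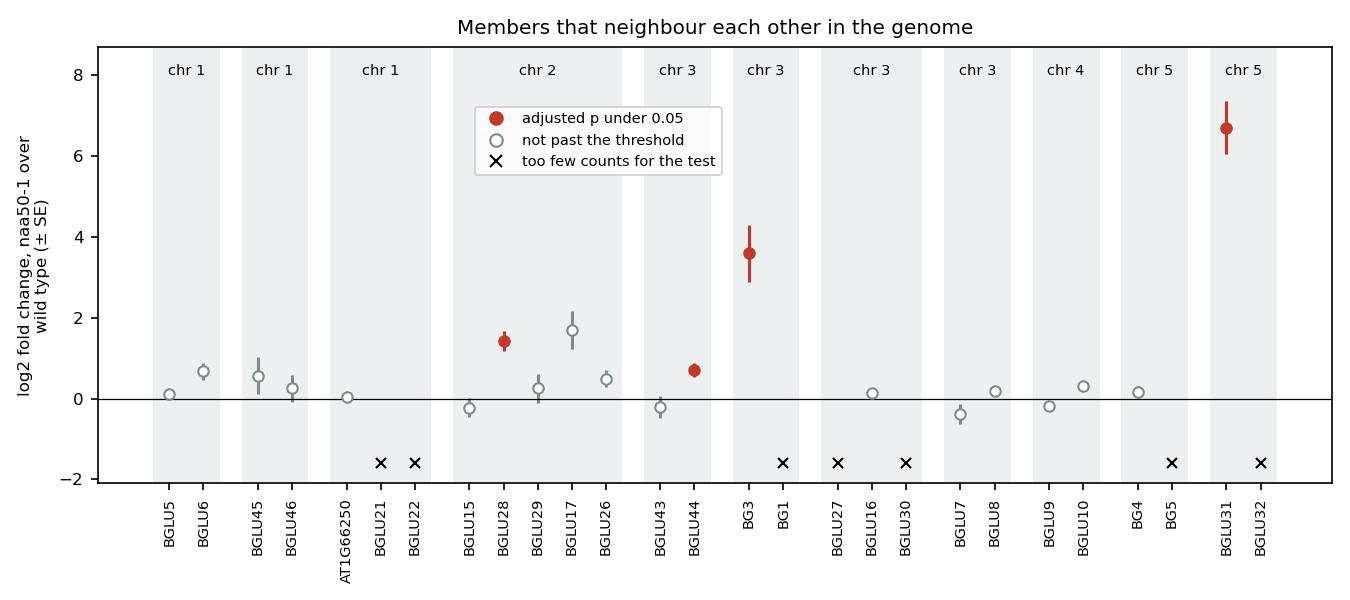
log2 fold change with its standard error for members that neighbour each other, in genome order within each shaded group, with crosses for members with too few counts. The 4 groups with a filled red point have 1 such point each: BGLU28, BGLU44, BG3 and BGLU31. BG1 beside BG3 and BGLU32 beside BGLU31 had too few counts for the test, so neither could pass.

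Genes of the same 2 domain families outside the members gave a comparison. Of 8 other genes annotated with the family 1 domain, 4 were tested and 0 passed (unadjusted p under 0.05 in 0). They include the myrosinases TGG1 and TGG2, the main enzymes of glucosinolate breakdown, with log2 fold changes of 0.06 and -0.02, and BGLU18. Of 33 other genes with the family 17 domain, 21 were tested, 2 rose, BGL2 among them, and 1 fell. Their log2 fold changes ran from -8.28 to 6.51, with a median of 0.09. At an unadjusted p under 0.05 in edgeR, 3 were higher and 4 lower. BGLU18, a beta-glucosidase of endoplasmic reticulum bodies, had 2896, 3260 and 2990 CPM in the libraries labelled naa50-1, against 2892, 1676 and 2353 CPM in the wild-type libraries (log2 fold change 0.40, adjusted p = 0.348, edgeR).

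Lists of genes that work with these enzymes were read in the same fit. They were chosen with earlier results of these data known, so their counts are a description. In the list for endoplasmic reticulum bodies, stores of beta-glucosidase, 3 of 8 tested genes rose and 0 fell, with a median log2 fold change of 0.78 against -0.01 over all genes. AT4G27860 averaged 29.6 ± 6.38 CPM in the libraries labelled naa50-1 and 14.8 ± 0.575 CPM in the wild-type libraries (SD, n = 3 each; log2 fold change 1.00, adjusted p = 0.00266, edgeR). PBP1, which aids the activation of these glucosidases, had a log2 fold change of 1.72 (adjusted p = 0.0233, edgeR) at about 1 CPM, and NAI2, needed to form the bodies, 1.19 (adjusted p = 0.0373, edgeR). Only 1 member was called without wild type replicate 2, wild type replicate 3, naa50-1 replicate 1 or naa50-1 replicate 2.

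A list drawn up around myrosinases and glucosinolates had 11 tested genes, of which 2 rose and 0 fell, with a median of 0.37. Neither riser is a myrosinase or a gene of glucosinolate breakdown by name. They were ABCG36, the transporter PEN3 that acts with PEN2 in defence (log2 fold change 1.65, adjusted p = 0.0068, edgeR), and CYP83B1, an enzyme of indole glucosinolate synthesis (1.38, adjusted p = 0.00154, edgeR). The myrosinases TGG1 and TGG2 and the specifier proteins ESP, NSP1, NSP4 and NSP5, which steer the products of breakdown, did not pass. Of 5 tested genes for phenylpropanoid glucosides and coumarins 0 passed in edgeR, all 5 were negative with a median of -0.47, and 2 were lower at an unadjusted p under 0.05. Of 14 genes of salicylate-linked defence, 12 were tested, 9 rose and 0 fell, with a median of 1.43. EDS1 averaged 90.3 ± 16.4 CPM in the libraries labelled naa50-1 and 28.3 ± 1.65 CPM in the wild-type libraries (SD, n = 3 each). The list summed to 342, 579 and 318 CPM in the libraries labelled naa50-1, against 171, 157 and 162 CPM in the wild-type libraries, highest in naa50-1 replicate 2, the library in which BGLU31 and BG3 were highest too. Its part in their values was not tested.

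Callose is made by callose synthases, and of 12 tested, 0 rose and 1 fell. CALS5, which lays down the callose wall of microspores, had 7.16, 8.40 and 4.97 CPM in the libraries labelled naa50-1, against 59.9, 41.9 and 42.8 CPM in the wild-type libraries, a log2 fold change of -2.81 (edgeR adjusted p = 2.05e-05, SE 0.21). The other 11 ran from -0.52 (CALS4) to 0.40 (CALS6), and the median of the 12 was 0.02.

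The 250 bases before the annotated gene start were read for 60 members in TAIR10.1. TTGAC, the core of the W-box to which WRKY factors bind, was present on either strand in 26 of the 60, and in 44.9% of 27419 such windows over all protein-coding genes. TGACG, the core bound by TGA factors, was in 12 of the 60 and in 18.6% of all windows. Among the 6 members that rose, BGLU31 alone had TTGAC and BGLU31 and BG3 had TGACG. The windows of these members, which had the 2 largest fitted changes among the members, are shown 5′ to 3′ in the direction of the gene, with the capitals marking TTGAC and TGACG or their reverse complements.
BGLU31, TAIR10.1 chr5:8388029-8388278, minus strand: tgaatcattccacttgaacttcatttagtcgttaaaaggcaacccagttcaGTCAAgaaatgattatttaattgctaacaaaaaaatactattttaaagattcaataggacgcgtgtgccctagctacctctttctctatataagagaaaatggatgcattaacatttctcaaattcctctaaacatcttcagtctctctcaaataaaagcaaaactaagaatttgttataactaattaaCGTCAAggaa
BG3, TAIR10.1 chr3:21183145-21183394, minus strand: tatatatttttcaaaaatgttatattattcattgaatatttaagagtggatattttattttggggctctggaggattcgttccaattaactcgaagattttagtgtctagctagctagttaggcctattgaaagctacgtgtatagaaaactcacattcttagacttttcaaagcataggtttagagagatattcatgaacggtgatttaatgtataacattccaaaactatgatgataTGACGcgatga
In BGLU31 TTGAC lay on the minus strand of the window at 199 and at 9 bases before the gene start, the second overlapping the TGACG at 10 bases. In BG3 TGACG lay at 11 bases on the plus strand. A match of this kind is a description of letters and not a bound site.

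At the same threshold the authors' deposited table had 9 members higher and 0 lower, among them all 6 that edgeR called. It also gave adjusted p-values under the threshold to BGLU17 (log2 fold change 1.71, adjusted p = 0.0354), BGLU6 (0.68, 0.0392) and AT4G34480 (0.53, 0.0399), which edgeR left above it. The deposited table rests on the same 6 libraries, and DESeq2 as run here called the same 9 members.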

How the data were processed

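The deposited files hold whole-number read counts for 33037 features and FPKM values, both made by the authors. The authors' deposited table of comparisons gives log2 fold changes, p-values and a normalized signal per group. The submitters' processing notes name HISAT2 2.0.5 and TAIR10; for the read counter and its handling of strand, nothing is given in the sources used here. Gene bounds equalled those of TAIR10.1 for 99.5% of 32548 nuclear genes and for all 61 members.

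Counts were scaled by TMM, filtered by filterByExpr (minimum count 10) and tested with the quasi-likelihood test of edgeR 4.0.16 in R 4.3.3, with genotype alone, Benjamini-Hochberg adjustment and a threshold of 0.05. The test was first run on simulated data. CPM are TMM-scaled. Alternatives were other scalings and filters, DESeq2 1.42.0, limma 3.58.1 (voom, log2(FPKM + 1), log2(FPKM + 0.1)), a threshold of 0.01, leaving out each library and a block for the replicate number.

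The rule for the members read names and descriptions alone, but the members and lists were chosen with earlier results of these data known. Named genes were the called members, the smallest p in each class and direction, the 5 highest by mean FPKM, members at 0 in a genotype, and up to 3 called genes per list; other genes were added for their neighbourhood, known role or low p. Exon sequences were compared by blastn 2.17.0. Catalytic codons were found by a pattern of 5 residues in the translated sequence. Intervals and floors cover counting error only.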

Additional observations from a re-analysis of the deposited data

How the results depend on the processing

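The count of 6 members called higher was 5 to 9 under the other scalings, filters, units and tools (9 with DESeq2, 5 with limma-voom), and the count called lower was 0 in every setting run. At an adjusted p under 0.01 the counts were 1336 for all genes, 3 for the members, 2 for the BGLU genes and 1 for the endoplasmic reticulum body list, as a stricter threshold must give fewer. The count of endo-glucanases called higher was 2 with scaling by library totals and with DESeq2, where AT4G34480 joined BG3, and 0 with limma-voom and with limma on log2(FPKM + 1), where BG3 was missed. The cause was not tested. With 1 library left out, 4 to 7 members, 3 to 6 BGLU genes, 0 to 1 callose synthases and 1 to 3 genes of the body list were called higher, and the members' median log2 fold change was 0.059 to 0.214. The single callose synthase was called without wild type replicate 2. The log2 fold change of ATBG_PPAP, -0.03 with all libraries, then ran from -0.094 to 0.0094 and was above 0 when wild type replicate 1 (0.0094) or naa50-1 replicate 2 (0.0026) was left out. That of A6, 0.16 with all libraries, ran from -0.099 to 0.638 and was below 0 when wild type replicate 3 (-0.099) or naa50-1 replicate 2 (-0.062) was left out.

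Groups share replicate numbers, so the replicate block was fitted as well. Deviations from the group means correlated at -0.0002, 0.0585 and 0.1021 between libraries of the same number, so the numbers were not taken to pair them. With the block 6 members were called higher. BGLU44 was missed (adjusted p = 0.0680) and BGLU6 was added. The body list had 2 calls and all genes 1969.

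Depth limits the 18 untested members, which had at most 32 counts in any library, and the wild-type values of BGLU31 and BG3.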
